A study of Mus musculus with 4 samples.

Results

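The 9 granule protease genes described here were followed on 4 arrays of mouse T cell lines: the chymase locus genes Cma1, Mcpt1, Mcpt2, Mcpt4, Mcpt8 and Ctsg, the carboxypeptidase gene Cpa3 and the tryptase genes Tpsab1 and Tpsb2. They were the listed granule protease genes with a probe set of their own in the platform annotation, 9 of 19938 genes measured, and each had 1 such probe set. The lines, TS1 and TS2, carry the label of a line derived from CD4+ T lymphocytes. They were grown untreated in Iscove-Dulbecco medium with murine interleukin-9 (IL-9), and total RNA of biological duplicates, A and B, gave 1 Affymetrix gene array each. No genotype, animal or clone history was given in the labels used here. The values are log2 of normalized intensities. The genes were chosen with their values on these arrays known, so their differences are given as descriptions, without a test.

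Mast cells store serine proteases in secretory granules, bound to the proteoglycan serglycin. Many chymases, though not all products of this locus, and cathepsin G cleave after aromatic residues. Tryptases cleave after basic residues, and carboxypeptidase A3 removes aromatic and aliphatic residues from the end of a chain. In the mouse, the chymase genes and Ctsg lie beside a group of granzyme genes, whose products T cells and natural killer cells use to kill targets. IL-9 is a growth factor of mast cells as well as of T cells.

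Of the 9 genes, 6, those of the chymase locus, were far higher on array TS2 B than on TS2 A and on both TS1 arrays. Cpa3 was lowest on TS2 B, and the tryptase genes stayed within 0.17 on the log2 scale over all 4 arrays. TS2 B was the highest array for 6 of the 9 genes, against 22.5% of all genes, and exceeded TS2 A at least 2-fold for the same 6, against 0.466% of all genes. All 6 exceeded it at least 8-fold, against 0.0702% of all genes. Over all genes, the difference between duplicates had an SD of 0.25 in TS2 and 0.28 in TS1. Each array is a single measurement, so no difference between duplicates has a replicate check.

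Windows upstream of 6 of the 9 genes were found in RefSeq (mouse build GRCm38.p6), and they are shown because the chymase locus genes were high together on TS2 B while Cpa3 was not. Each holds the 250 bases before the annotated start, 5′ to 3′. Capitals mark matches to AGATAA or TGATAA, forms of the GATA motif, and to TGTGGT, the core of the RUNX motif, each on either strand. Other forms of the GATA motif, such as AGATAG, were not searched, so an unmarked window can still hold one.
Cma1 (chr14:55944676-55944925, minus strand): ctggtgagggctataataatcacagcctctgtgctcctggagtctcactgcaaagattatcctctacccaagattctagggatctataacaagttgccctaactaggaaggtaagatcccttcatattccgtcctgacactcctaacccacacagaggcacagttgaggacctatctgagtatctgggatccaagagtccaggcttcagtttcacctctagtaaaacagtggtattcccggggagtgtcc
Mcpt1 (chr14:56017714-56017963, plus strand): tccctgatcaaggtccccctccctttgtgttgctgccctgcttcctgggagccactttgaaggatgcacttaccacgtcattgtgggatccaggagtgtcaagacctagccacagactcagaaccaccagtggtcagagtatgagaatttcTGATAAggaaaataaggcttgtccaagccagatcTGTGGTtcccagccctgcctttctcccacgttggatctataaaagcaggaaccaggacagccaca
Mcpt4 (chr14:56062311-56062560, minus strand): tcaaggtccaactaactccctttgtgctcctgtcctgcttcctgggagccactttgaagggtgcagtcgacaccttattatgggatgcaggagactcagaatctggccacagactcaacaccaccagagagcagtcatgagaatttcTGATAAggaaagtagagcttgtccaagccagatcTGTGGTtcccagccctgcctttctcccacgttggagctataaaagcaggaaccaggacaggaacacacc
Mcpt8 (chr14:56085198-56085447, minus strand): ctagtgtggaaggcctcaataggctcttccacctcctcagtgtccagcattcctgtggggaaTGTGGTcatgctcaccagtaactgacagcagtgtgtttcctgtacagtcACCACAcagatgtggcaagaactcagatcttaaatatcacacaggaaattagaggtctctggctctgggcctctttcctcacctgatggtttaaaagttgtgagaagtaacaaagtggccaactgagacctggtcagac
Ctsg (chr14:56102575-56102824, minus strand): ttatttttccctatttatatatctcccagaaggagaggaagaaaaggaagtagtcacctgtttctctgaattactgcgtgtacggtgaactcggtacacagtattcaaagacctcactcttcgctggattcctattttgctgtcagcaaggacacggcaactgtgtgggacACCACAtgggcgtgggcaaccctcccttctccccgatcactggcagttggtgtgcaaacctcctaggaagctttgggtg
Cpa3 (chr3:20242182-20242431, minus strand): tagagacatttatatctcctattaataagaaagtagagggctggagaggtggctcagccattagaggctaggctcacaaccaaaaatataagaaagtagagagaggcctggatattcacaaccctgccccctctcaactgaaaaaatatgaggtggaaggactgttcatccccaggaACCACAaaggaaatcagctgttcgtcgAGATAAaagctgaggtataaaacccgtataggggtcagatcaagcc

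Motifs were searched in 300 bases per gene, the 250 shown and 50 after the start, on both strands. TGTGGT occurred in 6 of the 6 windows, against 16.8% of 32851 RefSeq windows of the same length. In Cma1 the match lay after the start and is not shown. AGATAA occurred in the window of Cpa3 only (11.2% of all windows) and TGATAA in those of Mcpt1 and Mcpt4 (9.1%). The E-box letters CANNTG occurred in 4 windows, those of Cpa3, Cma1, Mcpt8 and Ctsg (72.3% of all windows). The STAT letters TTCNNNGAA occurred in that of Ctsg (8.3%). In Ctsg, 1 E-box match shares 4 bases with the TGTGGT match. Over the bases aligned without gaps, the windows of Mcpt1 and Mcpt4 were 86.4% identical, while Mcpt8 and Ctsg shared 59.0%. Cpa3, on another chromosome, shared 55.1% with Mcpt1 and 62.7% with Cma1. Identity between unrelated windows was not computed, so values from 55.1% to 62.7% are not read as likeness. These matches describe letters only, and no binding was measured.

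Ctsg encodes cathepsin G, a protease of neutrophil, monocyte and mast cell granules, and its duplicates differed most of all 19938 genes in TS2. Its log2 intensity was 7.30 (TS1 A), 5.18 (TS1 B), 6.71 (TS2 A) and 12.56 (TS2 B). The lines overlapped, because TS2 A lay below TS1 A. TS2 B exceeded TS2 A by 5.85, or 57.6-fold. TS1 A exceeded TS1 B by 2.13, or 4.37-fold, the 22nd largest such excess among all genes. The mean was 6.24 ± 1.51 (SD, n = 2) over the TS1 arrays and 9.64 ± 4.14 (SD, n = 2) over those of TS2.

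Mcpt1 and Mcpt2 encode the mouse mast cell proteases 1 and 2 (mMCP-1 and mMCP-2), which mark mucosal mast cells. Mcpt1 read 4.48 (TS1 A), 3.99 (TS1 B), 7.07 (TS2 A) and 11.80 (TS2 B). Both TS2 arrays lay above both TS1 arrays, and TS2 B stood 4.73 above TS2 A, or 26.6-fold. Mcpt2 read 5.52 (TS1 A), 4.55 (TS1 B), 7.32 (TS2 A) and 11.25 (TS2 B). Here too the lines did not overlap, and TS2 B stood 3.93 above TS2 A, or 15.2-fold. For Mcpt1 and Mcpt2 the line means differed by 5.20 (SE 1.50) and 4.25 (SE 1.28).

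Mcpt8 encodes mMCP-8, a protease used as a basophil marker. It read 5.75 (TS1 A), 4.55 (TS1 B), 7.89 (TS2 A) and 11.64 (TS2 B). The lines did not overlap, and TS2 B exceeded TS2 A by 3.74, or 13.4-fold. Within TS1, array A exceeded array B by 1.21, or 2.31-fold.

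Mcpt4 and Cma1 encode the connective-tissue mast cell chymases mMCP-4 and mMCP-5. Mcpt4 read 5.45 (TS1 A), 5.33 (TS1 B), 6.60 (TS2 A) and 10.10 (TS2 B), so TS2 B exceeded TS2 A by 3.50, or 11.3-fold. Its lines did not overlap. Cma1 read 5.49 (TS1 A), 4.73 (TS1 B), 5.35 (TS2 A) and 8.61 (TS2 B), an excess of TS2 B over TS2 A of 3.26, or 9.59-fold. For Cma1, TS2 A lay between the TS1 arrays. Mcpt1 and Mcpt2, linked to mucosal mast cells, and Mcpt4 and Cma1, linked to connective-tissue mast cells, were thus highest on the same array. The other mast cell protease genes Cpa3, Tpsab1 and Tpsb2 were not highest there. Signal shared between paralogs, described below, limits this reading.

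Both TS2 arrays lay above both TS1 arrays for 4 of the 9 genes, Mcpt1, Mcpt2, Mcpt4 and Mcpt8, against 29.1% of all genes. The excess of TS2 rested on TS2 B to different extents. With TS2 A alone against the mean of the TS1 arrays, the excess was 2.84 for Mcpt1, 2.74 for Mcpt8, 2.29 for Mcpt2, 1.21 for Mcpt4, 0.47 for Ctsg and 0.24 for Cma1. With TS2 B alone it was 7.57 for Mcpt1, 6.48 for Mcpt8, 6.22 for Mcpt2, 4.70 for Mcpt4, 6.32 for Ctsg and 3.50 for Cma1. TS2 A therefore carried a several-fold excess of Mcpt1 (7.14-fold), Mcpt8 (6.69-fold) and Mcpt2 (4.89-fold), and its Ctsg and Cma1 values lay within the range of the TS1 arrays. In bulk RNA, more cells that express these genes and more RNA per cell cannot be told apart.

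Array TS1 A was above TS1 B for 7 of the 9 genes, against 44.2% of all genes, and at least 2-fold above it for Mcpt8 and Ctsg, against 0.727%. For the 6 chymase locus genes the excess of TS1 A ran from 0.12 for Mcpt4 to 2.13 for Ctsg. No array comes with a detection call, so whether the low values in TS1 mark transcript or background is not known here.

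**Figure D1:**
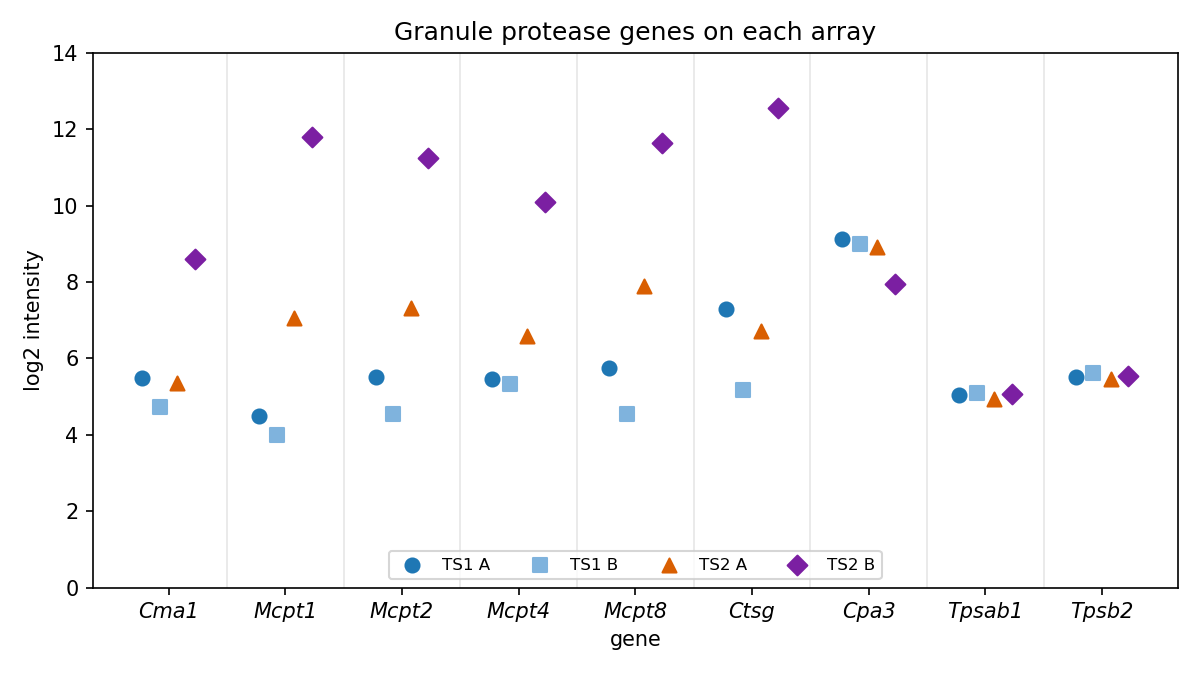
Log2 intensity of the 9 protease genes on arrays TS1 A, TS1 B, TS2 A and TS2 B, 1 point per array. TS2 B is highest for the 6 chymase locus genes, from 8.61 for Cma1 to 12.56 for Ctsg, is lowest for Cpa3 at 7.95, and lies with the other arrays for Tpsab1 and Tpsb2.

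Cpa3 encodes mast cell carboxypeptidase A3, which is stored in a complex with the chymase mMCP-5, the product of Cma1. It read 9.13 (TS1 A), 8.995 (TS1 B), 8.91 (TS2 A) and 7.95 (TS2 B). Both TS1 arrays lay above both TS2 arrays, as for 29.3% of all genes. The first 3 arrays lay close together, and TS2 B was 0.96 below TS2 A, a ratio of 1.95-fold. By TS2 B minus TS2 A, Cpa3 ranked 19902 from the top among 19938 genes, near the low end. It was the only one of the 7 genes varying at least 2-fold over the arrays that was lowest on TS2 B. The mean was 9.06 ± 0.098 (SD, n = 2) over the TS1 arrays and 8.43 ± 0.68 (SD, n = 2) over those of TS2, and TS2 minus TS1 was -0.64 (SE 0.32). With TS2 A alone against the TS1 mean it was -0.16.

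Tpsab1 and Tpsb2 encode the mast cell tryptases mMCP-7 and mMCP-6, and the RefSeq table lists Tpsab1 as a transcribed pseudogene in the reference strain. Tpsab1 read 5.05 (TS1 A), 5.09 (TS1 B), 4.93 (TS2 A) and 5.08 (TS2 B). Tpsb2 read 5.51 (TS1 A), 5.63 (TS1 B), 5.46 (TS2 A) and 5.54 (TS2 B). The arrays of the lines overlapped for both genes, which differed between the line means by -0.067 and -0.070. TS2 B stood only 0.15 and 0.077 above TS2 A.

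The 6 genes that were high on TS2 B lie together on chromosome 14, and the measured genes around them differed less between the TS2 arrays. In the order of the RefSeq table, chromosome 14 carries Cma1, Mcpt1, Mcpt2, Mcpt4, Mcpt8 and Ctsg, followed by the granzyme genes Gzme, Gzmd, Gzmg, Gzmn, Gzmf, Gzmc and Gzmb. TS2 B minus TS2 A ran from 3.26 to 5.85 over the 6 chymase locus genes and from -0.077 to 0.94 over the 7 granzyme genes. The granzyme median was 0.30, against -0.011 over all genes. Gzmb (0.94), Gzmc (0.68) and Gzme (0.63) ranked 108, 187 and 212 among all genes, a smaller excess on the same array. Next to Ctsg, Gzme read 4.65 on TS2 A and 5.28 on TS2 B. The 5 nearest measured protein-coding genes on each outer side, 10 in all, ran from -0.16 to 0.46. On the Cma1 side the nearest, Sdr39u1, read 9.76 on TS2 A and 10.03 on TS2 B.

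The gene of granzyme B, Gzmb, read 13.22 (TS1 A), 11.30 (TS1 B), 12.55 (TS2 A) and 13.49 (TS2 B). Like Ctsg and Mcpt8 it was lowest on TS1 B and highest on TS2 B, but its larger gap lay between the TS1 arrays (1.92, against 0.94 in TS2). It did not pass the test between the lines (difference 0.76, SE 0.68, limma adjusted p = 0.536). In that limma fit 0 of the 7 granzyme genes passed in either direction, with 1 higher in TS2 at an unadjusted p under 0.05 and a median difference of 0.11. Among all genes 13.5% passed, with a median difference of 0.013. The share of all genes at an unadjusted p under 0.05 was not counted, so unadjusted counts are no measure of excess.

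A pair of probe sets that the annotation assigns to 2 other chymase genes at once, and which therefore stand for neither gene, were also highest on TS2 B and next highest on TS2 A. One read 5.20 (TS1 A), 5.07 (TS1 B), 6.39 (TS2 A) and 9.71 (TS2 B). The other read 4.85 (TS1 A), 5.06 (TS1 B), 6.04 (TS2 A) and 9.01 (TS2 B), so its TS1 A value lay below TS1 B, unlike in the 6 chymase locus genes. The chymases are close paralogs, so part of the signal of one gene's probes can come from another's transcript. The separate values of Mcpt1, Mcpt2, Mcpt4 and Cma1 are uncertain to that extent.

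**Figure D2:**
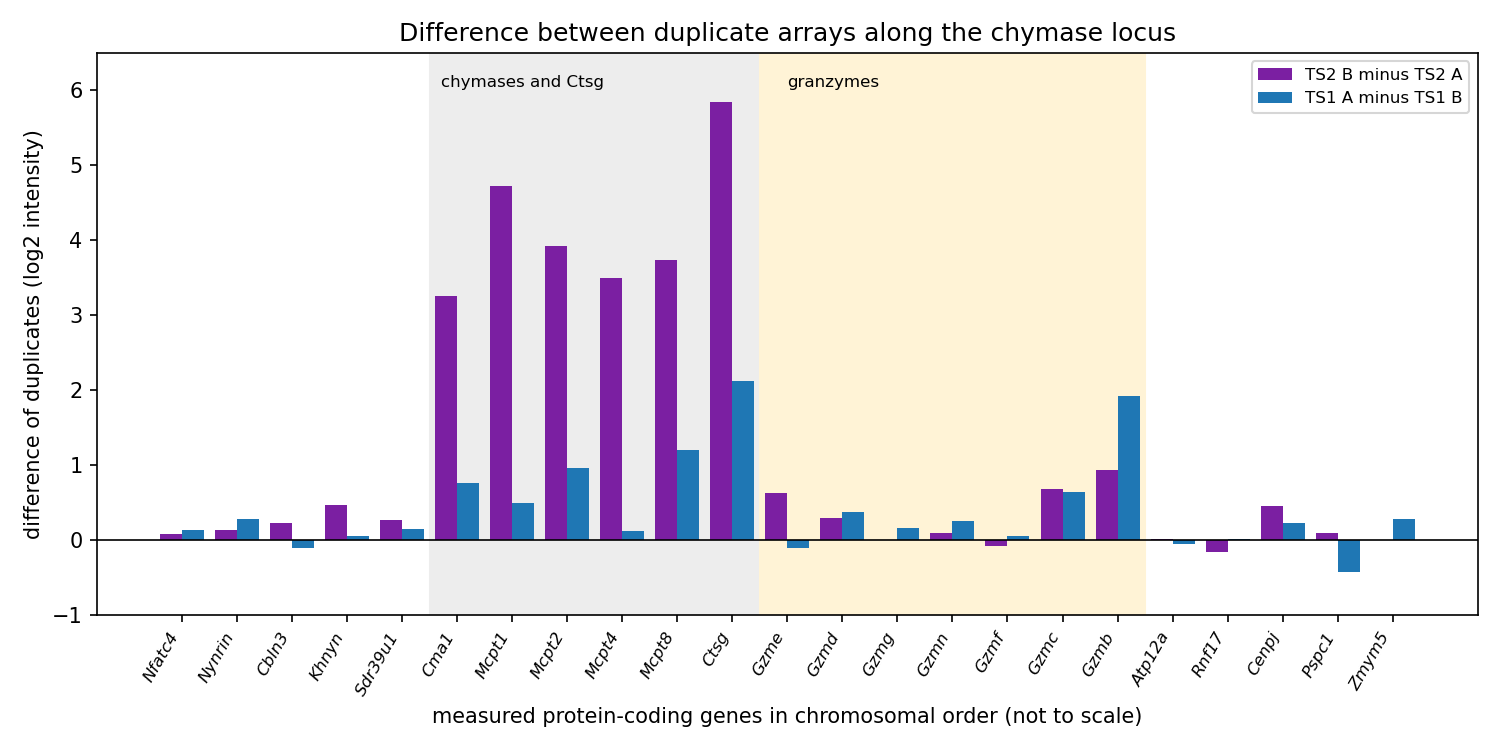
Difference between duplicate arrays (log2 intensity) for measured protein-coding genes around the chymase locus in chromosomal order, as TS2 B minus TS2 A and TS1 A minus TS1 B, 1 bar per gene and line. The TS2 bars of the 6 chymase locus genes (3.26 to 5.85) end at Ctsg, and those of the granzyme and flanking genes stay at or below 0.94. The TS1 bars reach 2.13 for Ctsg and 1.92 for Gzmb.

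Over the whole transcriptome the 6 chymase locus genes were among the 12 genes with the largest excess of TS2 B over TS2 A, at ranks 1 (Ctsg), 3 (Mcpt1), 4 (Mcpt2), 6 (Mcpt8), 7 (Mcpt4) and 12 (Cma1). Ranks 2 and 5 belonged to Lxn and Ddc, named after their values were seen. Lxn encodes latexin, an inhibitor of A-type carboxypeptidases. It read 10.01 (TS1 A), 10.49 (TS1 B), 5.52 (TS2 A) and 10.54 (TS2 B), so that TS2 A was the one low array. Ddc, which encodes aromatic L-amino acid decarboxylase, showed the same arrangement, with 8.45, 8.50, 5.55 and 9.47.

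**Figure D3:**
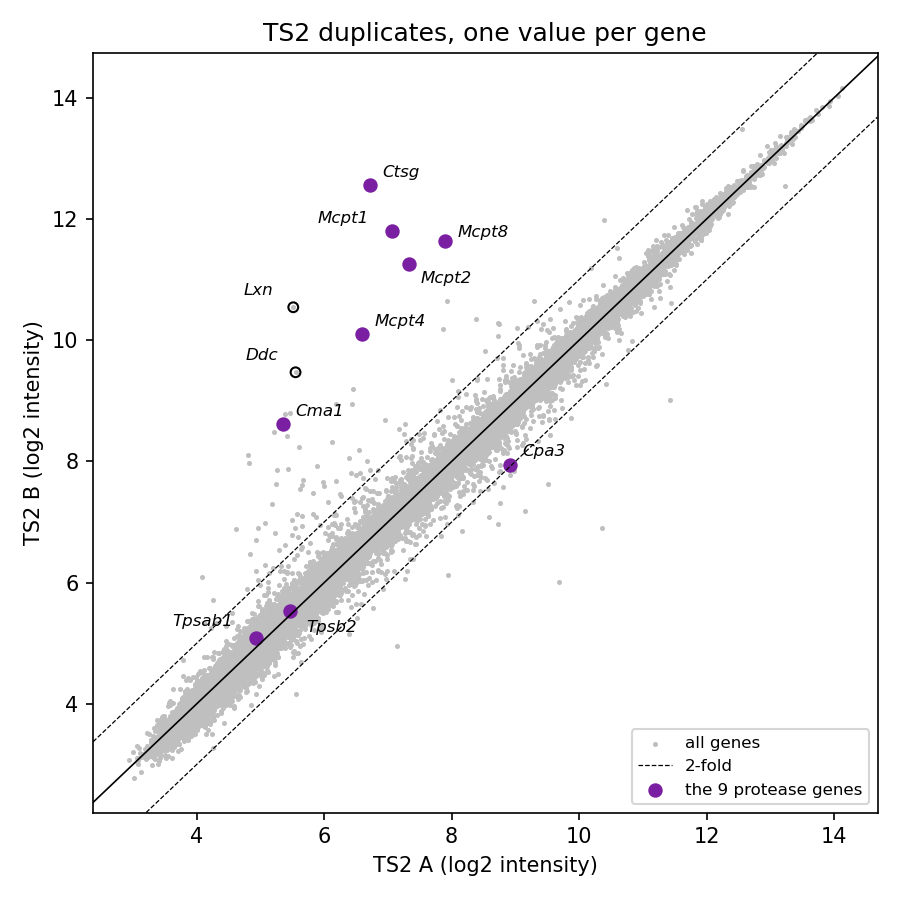
Log2 intensity of 19938 genes on TS2 A (horizontal) and TS2 B (vertical), with the line of equality and dashed lines at 2-fold. The 6 chymase locus genes lie 9.59-fold to 57.6-fold above equality, beside Lxn and Ddc. Cpa3 lies just inside the lower dashed line, and Tpsab1 and Tpsb2 lie near equality.

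The chymase locus genes resembled each other in their profile over the 4 arrays. Likeness was measured as the Euclidean distance between log2 profiles centred on their means, over 4 arrays. The closest pair was Mcpt2 and Mcpt8, 0.42 apart, and the closest member to Mcpt1 was Mcpt8, 1.04 apart. Cma1 and Mcpt4 were 1.19 apart, and Ctsg was nearest to Mcpt2, at 1.80. Among 1726 other named genes that varied at least 2-fold, Klrc1, which encodes the inhibitory receptor chain NKG2A, was one of the 3 nearest for 5 of the 6 genes. Klrc1 read 5.35 (TS1 A), 4.26 (TS1 B), 6.45 (TS2 A) and 9.19 (TS2 B). Its distance was 0.87 from Mcpt4, 1.49 from Mcpt2, 1.74 from Mcpt8, 2.34 from Ctsg and 2.63 from Mcpt1. For Mcpt1, Mcpt2, Mcpt8 and Ctsg it was therefore farther than another chymase locus gene. The next nearest were Casp1 (2.76) and Mctp2 (2.78) for Mcpt1, and Pth2r (1.93) and Casp12 (1.94) for Mcpt2. For Mcpt8 they were Casp1 (2.12) and Pth2r (2.24), and for Ctsg Casp12 (2.54) and Pxdc1 (2.67). Casp1, which encodes the caspase that activates interleukin-1 beta, read 4.42 (TS1 A), 4.36 (TS1 B), 8.39 (TS2 A) and 9.38 (TS2 B), so it was high on both TS2 arrays.

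Mcpt4 and Cma1 had closer companions outside the locus. Casp12, an inflammatory caspase gene, lay 0.49 from Mcpt4 and Pth2r, which encodes a parathyroid hormone receptor, 0.68, and Pxdc1 lay 0.48 from Cma1, with 8.79 on TS2 B and 5.05 to 5.46 on the other arrays. Casq2, a calsequestrin gene, lay 0.64 and Rbm44 0.67 from Cma1. Cpa3 was most like Cmtm6, which encodes a membrane protein that stabilises PD-L1, at a distance of 0.12. Cmtm6 read 8.89, 8.74, 8.53 and 7.72 on TS1 A, TS1 B, TS2 A and TS2 B. Ptp4a3, a phosphatase gene, followed at 0.25 and Vstm5 at 0.26. With 4 arrays, many genes share such an order of values.

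Lists of related genes were read on the same arrays. Over 9 lists of related genes, 126 distinct genes were measured outside the 9 proteases, and 2 of them, both T cell markers, lay at least 2-fold apart between TS2 A and TS2 B. One was higher on TS2 B, as were 0.466% of all genes, and the other on TS2 A, as were 0.150%. Between the lines, 32 of the 126 passed limma at an adjusted p of 0.05, 16 higher in TS2 and 16 higher in TS1, or 25.4% against 13.5% of all genes. Among all genes 5.05% were called higher in TS2 and 8.45% higher in TS1. These lists were chosen with earlier results of these data known.

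Mast cell receptors and mediators differed between the lines in both directions. Of 28 measured, 3 were higher in TS2, 6 higher in TS1 and 19 did not pass, with a median difference of -0.021. Their TS2 B minus TS2 A ran from -0.57 to 0.32, with a median of 0.036, and the mean over the list was 7.64 (TS1 A), 7.67 (TS1 B), 7.69 (TS2 A) and 7.66 (TS2 B). The part of mast cells or basophils in the chymase values was not tested. Fcer1a, the IgE-binding chain of the high-affinity IgE receptor, read 12.69, 12.91, 13.00 and 13.08 on TS1 A, TS1 B, TS2 A and TS2 B (difference 0.24, adjusted p = 0.240 by limma). Ms4a2, the receptor's signal-amplifying beta chain, read 3.99 to 4.22 over the arrays. Fcer1g, its signalling gamma chain, was higher in TS1 (difference -1.39, SE 0.16, limma adjusted p = 0.00832).

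Kit, the stem cell factor receptor of mast cells, read 7.20 and 7.40 in TS1 and 5.48 and 5.32 in TS2 (difference -1.90, SE 0.12, limma adjusted p = 0.00153). Hdc, which makes histamine, differed by -0.079 (adjusted p = 0.806). Slc18a2, which loads histamine and serotonin into granules, differed by -3.60, with 5.90 on TS2 A and 5.82 on TS2 B. Hpgds, the prostaglandin D synthase of mast cells, was higher in TS2 by 4.42 and Cysltr1, a leukotriene receptor, by 3.41. Each of these genes lay within 0.57 between TS2 A and TS2 B.

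Of 21 measured transcription factors of mast cells and basophils, 4 were higher in TS2, 3 higher in TS1 and 14 did not pass, with a median difference of 0.14. Gata2, which drives mast cell and basophil development, read 11.22 and 11.51 in TS1 and 6.52 and 6.91 in TS2 (difference -4.65, SE 0.18, limma adjusted p = 0.000411). Gata1, its relative, differed by -1.51 and Runx1 by -1.66. Higher in TS2 were Bhlhe40 (1.89) and Ikzf2 (1.57), and also Id2 (1.55) and Cebpb (0.74), the last pair named after their values were seen. The count of 4 fell to 2 without TS1 B (Bhlhe40 and Cebpb lost), without TS2 A and without TS2 B (Ikzf2 and Cebpb lost each time), and Ikzf2 was also lost without TS1 A. At a limma adjusted p under 0.01, Bhlhe40, Ikzf2 and Cebpb were all lost. Mitf, a factor that activates mast cell protease genes, read 6.26, 6.59, 6.71 and 6.44 (difference 0.15, adjusted p = 0.608 by limma). TS2 B minus TS2 A of these factors ran from -0.35 to 0.69, Bhlhe40 having the largest.

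Genes that activate, store or restrain granule proteases differed between the lines in both directions. Of 15 measured, 1 was higher in TS2, 5 higher in TS1 and 9 did not pass, with a median difference of -0.43. Ctsc, the peptidase that removes the activation dipeptide of chymases, cathepsin G and granzymes, read 11.42, 11.54, 11.75 and 11.93 (difference 0.36, adjusted p = 0.0989 by limma). Srgn, which encodes serglycin, read 13.21, 13.09, 13.38 and 13.43 (difference 0.25, adjusted p = 0.158 by limma, and 0.0370 with an intensity trend in the prior variance). Enzymes of the sugar chains of such proteoglycans were higher in TS1: Xylt1 differed by -3.25, Ext1 by -2.40 and Ndst2, needed for mast cell heparin, by -0.91. Ctsl, cathepsin L, differed by -2.89. Serpinb1a, an inhibitor of cathepsin G and chymase, was higher in TS2 by 1.92 (SE 0.18, limma adjusted p = 0.00515), with 12.01 on TS2 A and 12.25 on TS2 B. The fifth gene higher in TS1 was Glce, an enzyme of heparan sulfate, named after its values were seen. The count of 5 fell to 3 with the replicate letter as a block or without TS1 B (Ndst2 and Glce lost), and to 2 without TS2 A or without TS2 B (Xylt1 lost too). With the block the limma adjusted p of Ndst2 was 0.0697. At a limma adjusted p under 0.01, Ndst2, Glce and Xylt1 were lost.

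**Figure D4:**
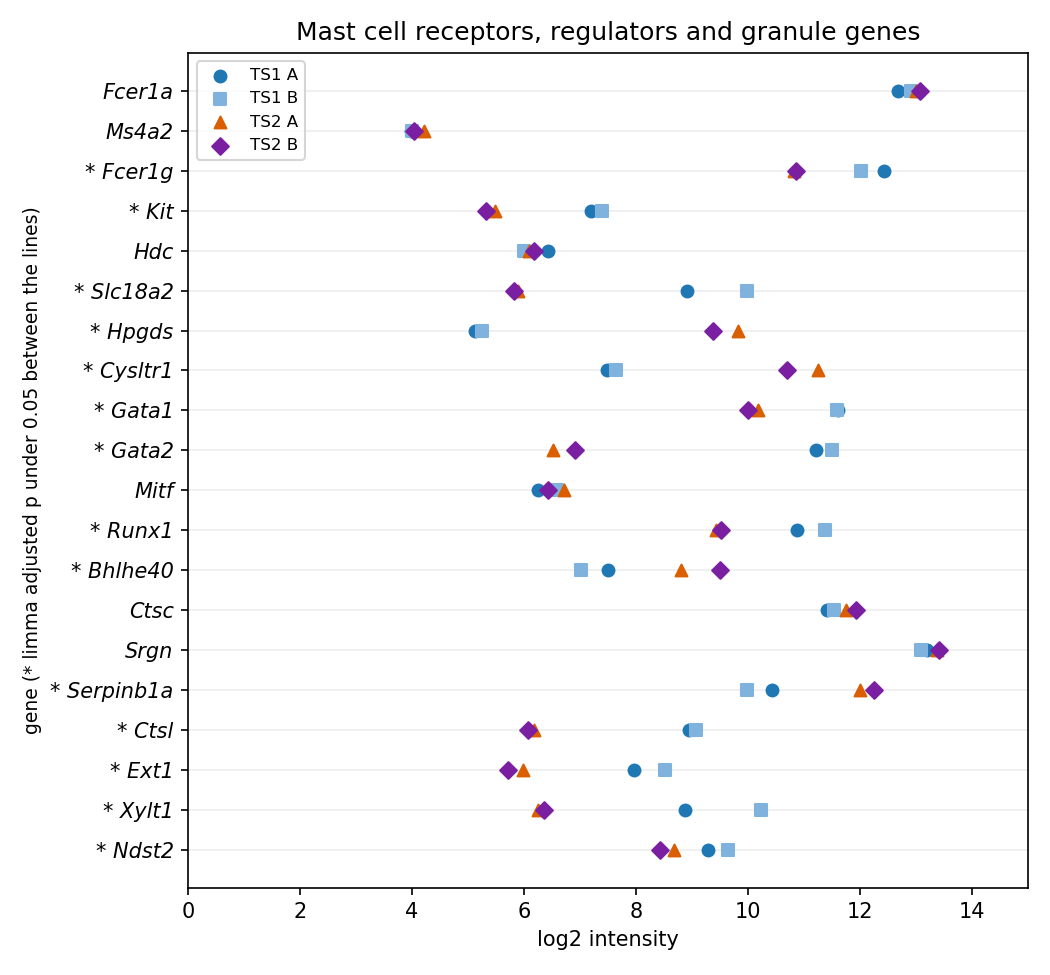
Log2 intensity of named mast cell receptors, regulators and granule genes, 1 point per array, with an asterisk where limma's adjusted p was under 0.05 between the lines. The TS2 A and TS2 B points lie within 0.69 of each other in every gene shown, and the lines lie far apart for Gata2, Hpgds and Slc18a2.

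Relatives of the tryptases and of Cpa3 did not pass the test between the lines. Of 8 measured neighbours of the tryptase genes, limma called 0, while the unadjusted p was under 0.05 for 2 that were higher in TS2 and for 1 that was lower there. The share of all genes at that unadjusted threshold was not counted. The median difference of these neighbours between the lines was 0.15. Their TS2 B minus TS2 A ran from -0.28 to 0.25. They included Prss34, which encodes the basophil and mast cell protease mMCP-11 (5.49, 5.08, 5.88 and 5.60 on TS1 A, TS1 B, TS2 A and TS2 B). Of 5 measured carboxypeptidases of the same type as Cpa3, limma called 0, the unadjusted p was under 0.05 for 0 of them, and the median difference was 0.12. Their TS2 B minus TS2 A ran from -0.26 to -0.11.

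Markers of other cells that carry the same proteases were compared array by array. Of 15 neutrophil and monocyte granule genes other than Ctsg, limma called 1 higher in TS2 and 0 in TS1 (1 each at an unadjusted p under 0.05), with a median difference of -0.019. Their TS2 B minus TS2 A ran from -0.49 to 0.44. Elane, Prtn3 and Mpo, the granule partners of cathepsin G in neutrophils, read 5.39, 5.41 and 6.23 on TS2 B and 5.29, 5.73 and 5.93 on TS2 A. The gene higher in TS2 was Gfi1, a transcriptional repressor (1.86, limma adjusted p = 0.00753). Of 15 basophil markers other than Mcpt8 and Cpa3, limma called 3 higher in TS2 and 2 in TS1. Their median difference was 0.45. Without adjustment, p was under 0.05 for 8 markers in favour of TS2 and for 2 in favour of TS1. For these and the neutrophil and monocyte genes, the share of all genes at that threshold was not counted. Called higher in TS2 were Cd200r4 (6.02), Itga2, an integrin chain (3.19), and the chemokine gene Ccl3 (2.11). Besides Gata2, the other gene called higher in TS1 was Itga2b, named after its values were seen. Ccl3 lost its call without either TS1 array (limma adjusted p = 0.0579 and 0.0582), and without TS1 A the count higher in TS2 was 5. Ccl3 also lost its call at a limma adjusted p under 0.01. TS2 B minus TS2 A of the list ran from -0.49 to 0.89, the largest being that of Ccl3, with 7.57 on TS2 A and 8.46 on TS2 B. The lists' part in the chymase values was not tested.

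T cell markers checked the labels only in part. Of 17 measured, 4 were higher in TS2 (Cd3e, Ptprc, Cd247 and Zap70), 1 was higher in TS1 (Lat) and 12 did not pass, with a median difference of 0.27. Cd4 read 5.15 to 5.38 over the arrays and Cd3d 4.63 to 4.92, without a detection call. A pair of T cell markers, named after their values were seen, did separate duplicates. Cd3g read 10.52 (TS1 A), 6.07 (TS1 B), 10.39 (TS2 A) and 11.98 (TS2 B), and thus was lowest on TS1 B and highest on TS2 B. Ctsg, Mcpt1, Mcpt2, Mcpt4, Mcpt8, Cma1 and Gzmb had the same extremes, but so had other listed genes, among them Gzmc and Il13. The share of all genes with these extremes was not counted, so no link is drawn from them. Cd28 read 7.14 on TS2 A and 4.95 on TS2 B, opposite to the chymase locus genes. Their part in the chymase values was not tested.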

How the data were processed

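Total RNA of 2 TS1 and 2 TS2 samples was measured on 1 array each. The authors deposited linear intensities per probe set, made with Affymetrix Expression Console and RMA per the submitters' processing notes, and no version or filter is named there. RMA normalizes between arrays, so a change common to most genes would be lost. Column medians ran from 88.6 to 92.5. Here log2 was taken, with no pseudocount and no filter on low values, so all 9 genes were kept.

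Of 35556 probe sets, 21789 named 1 gene, 1621 several and 12146 none. Symbols were updated through Entrez numbers in a RefSeq table (GRCm38.p6, 21698 found), and the brightest probe set stood for each of 19938 genes. The lines were compared with limma 3.58.1 in R 4.3.3 (lmFit, eBayes, Benjamini-Hochberg over all genes, called under 0.05), with 2 residual degrees of freedom. The fit was tested on simulated data. An exact permutation test of 2 against 2 arrays cannot go below p = 0.333. The labels call the samples biological duplicates cultured in duplicate, and the p-values measure the spread between them. Detection calls and scan dates were not used here.

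The 9 genes, the lists of related genes and the motifs were chosen with earlier results of these data known. Named were the 9 genes, up to 4 called genes with the largest difference per list, a fixed set of mast cell genes, and the 3 genes nearest in profile to each protease gene that varied at least 2-fold. Any other gene stands as a chromosomal neighbour, a listed marker or the end of a range, or its late choice is stated beside it. Alternatives were a replicate block, each array left out, an intensity trend or robust prior, median centring, renewed quantile normalization, the dimmest 30% left out, the mean of a gene's probe sets and an adjusted p under 0.01.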

Additional observations from a re-analysis of the deposited data

How the results depend on the processing

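The count of 2691 genes called between the lines fell to 1666 with the replicate letter as a replicate block and to 807 at an adjusted p under 0.01, and ran from 979 to 2198 with 1 array left out. It stayed within 1.5 times under the other alternatives. The labels used here give a shared letter only and do not say whether arrays of the same letter were handled together. The lines' A against B differences had r = -0.029 over all genes. That value cannot decide whether the block is a pairing, because most genes may not differ between A and B. The count of 32 called genes in the related lists stayed within 1.5 times throughout. Centring or renewed quantile normalization moved TS2 B minus TS2 A of the 9 genes by at most 0.062. A line represented by its lone array borrowed the spread of the other. Signal over background was not available, so differences of genes that are low in one line are uncertain in size.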
